A study of Homo sapiens with 3 samples.

Results

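The ERBB family of receptor tyrosine kinases and its ligands were followed in the 5637 bladder cancer cell line and its gemcitabine-resistant derivative. The members were chosen as a gene family: the 4 receptors EGFR, ERBB2, ERBB3 and ERBB4, and the 6 ligands AREG, EREG, HBEGF, TGFA, BTC and NRG1. All 10 were found by symbol among the 29960 genes of the deposited table, and all 10 were among the 15643 genes with enough reads to be tested. The line 5637 is an established human bladder carcinoma line, and gemcitabine is a deoxycytidine analog used against bladder cancer. The labels give the parental cells the genotype WT and the derived cells the genotype Gemcitabine Resistant. Cells of both groups were grown in RPMI medium with FBS and are labelled Untreated at harvest. The resistant cells come, by the labels, from an acute treatment with gemcitabine and, by the study's text, from continuous exposure to it. Each library was made from poly(A)-selected RNA of 1 single-cell clone by the study's methods, so a difference between groups cannot be told apart from a difference between clones picked. Counts of 3 libraries carry a sample label and were used here: Parental 1, Resistant 1 and Resistant 2.

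ERBB receptors sit in the plasma membrane of epithelial cells, where ligand binding drives them into dimers and switches on their kinase domains. ERBB2 has no known ligand of its own and acts as the preferred partner of the other receptors, while ERBB3 has little kinase activity and passes signals on through its partners. The EGF-like ligands are made as membrane proteins and are released by proteases such as ADAM17. AREG, EREG, HBEGF, TGFA and BTC bind EGFR, HBEGF, BTC and EREG also bind ERBB4, and NRG1 binds ERBB3 and ERBB4. In the bladder, EGFR and ERBB2 are known for their expression in the urothelium and in urothelial carcinoma. Downstream, the RAS-ERK cascade turns on a set of feedback genes, among them the DUSP phosphatases and Sprouty proteins.

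Between 14475531 and 17461941 reads were counted on genes per library. Levels are given as CPM, the count scaled to library size with edgeR's TMM factors, on which scale a count of 3 was 0.173 to 0.213 CPM. Levels of different genes were set against each other only as FPKM, which also divides by gene length. Intervals of levels and of folds between libraries are exact 95% intervals and cover counting error only. All 10 urothelial and epithelial markers had more than 10 reads in every library, with a summed level of 10126, 7570 and 7758 CPM in Parental 1, Resistant 1 and Resistant 2. Of them 1 was called, the basal keratin KRT5 (edgeR adjusted p = 0.00215). KRT5 was at 272.0 CPM in the parental library against 9.79 and 13.8 CPM in the resistant libraries, a fitted log2 fold change of -4.52. Its deposited group means, which also take in clones not used here, were less far apart. They were 11544 in the parental and 2047 in the resistant group, a log2 ratio of -2.49. The fibroblast list, of which 5 of 6 genes were in the table, summed to 147 to 172 CPM, carried by the collagen genes COL1A1 and COL1A2, while LUM was at 0, PDGFRB at 4 reads or fewer, and THY1 at 0, 9 and 27 reads in Parental 1, Resistant 1 and Resistant 2. Endothelial markers (2 of 3 in the table, CDH5 at 1 read or fewer) summed to 0.184 to 0.865 CPM, and the 4 leukocyte markers to 0.568 to 1.22 CPM, of which CD14 had 3, 12 and 18 reads and PTPRC 4 or fewer. The part of these other markers in any result was not tested.

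The question put to the members was whether their transcripts differed between gemcitabine-resistant and parental cells. No member passed the test. By edgeR's quasi-likelihood test with Benjamini-Hochberg adjustment over all genes tested, 0 of 10 members were called at an adjusted p under 0.05, against 0.582% of all tested genes (91 of 15643). DESeq2 called 0 of 10 as well, against 1.68% of the genes it gave an adjusted p. At an unadjusted p under 0.05, 2 members were found, the ligands EREG and HBEGF, against 9.54% of all tested genes. Both were higher in the resistant libraries (4.63% of all tested genes were), and 0 members had such a p in the lower direction (4.91%). In 6 members both resistant libraries lay above the parental one, against 35.2% of all tested genes, in 1 both lay below, against 34.5%, and in 3 the groups overlapped. Among the 6, the counting interval of the fold held 1 in 1 or both resistant libraries for EGFR, ERBB4 and BTC. Only EREG was at least 2-fold above the parental library in both resistant libraries, which 5.2% of all tested genes were, and 0 members were as far below (3.65% of genes below and 8.85% in either direction). By the deposited group means 5 of 10 members were higher in the resistant group, against 52.4% of all tested genes. The median log2 fold change was 0.44 over the 6 ligands and 0.03 over the 4 receptors, against 0.03 over all tested genes. The residual spread in this fit comes from the 2 resistant libraries alone, and the parental library is assumed to vary as they do. With 1 residual degree of freedom the p-values rest mainly on the spread shared by all genes. In bulk libraries of this kind, a lower level per cell and fewer cells with the transcript cannot be told apart.

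**Figure D1:**
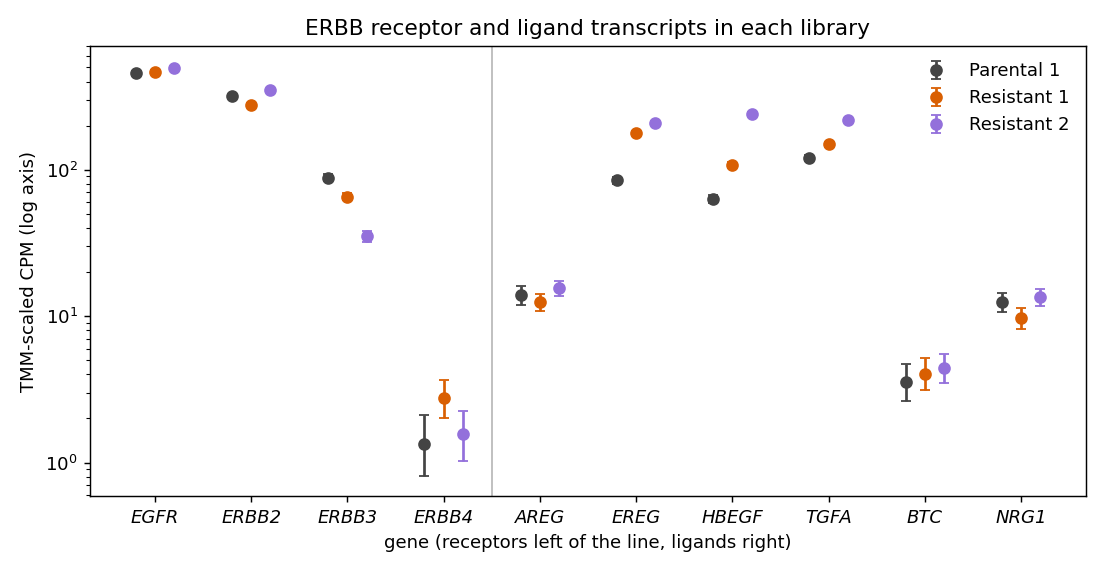
Level of each ERBB receptor and ligand as TMM-scaled CPM (log axis) in the 3 libraries, with 1 point a library and bars for the exact 95% counting interval, which are narrower than the point for abundant genes. EGFR and ERBB2 lay close together in all 3 libraries, ERBB3 ran from 88.4 CPM in Parental 1 to 35.0 CPM in Resistant 2, and EREG, HBEGF and TGFA were lowest in Parental 1.

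EGFR (ENSG00000146648, chr7:55086714-55324313, plus strand), the receptor of most of the ligands here, was at 457.8 CPM in Parental 1, 467.8 in Resistant 1 and 496.8 in Resistant 2. Both resistant libraries were above the parental one, by 1.02-fold (95% counting interval 0.988 to 1.06, which holds 1) and 1.09-fold (1.05 to 1.12). The fitted log2 fold change of 0.08 (SE 0.35, 95% interval -0.73 to 0.88) had an edgeR adjusted p of 0.983. The deposited group means of EGFR, which also take in clones not used here, went the other way by a log2 ratio of -0.02, from 7627 normalized counts in the parental to 7505 in the resistant group. All positions of genes are those of the deposited table, whose build the submitters' processing notes give as hg19. The table also lists an antisense gene over 9185 bases of EGFR, EGFR-AS1, with 7, 9 and 10 reads in Parental 1, Resistant 1 and Resistant 2. Whether reads were counted by strand is not stated, so reads of such overlapping pairs may be shared.

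ERBB2 (ENSG00000141736, chr17:37844167-37886679, plus strand) was at 316.4 CPM in Parental 1, 276.3 in Resistant 1 and 348.7 in Resistant 2. The parental library lay between the resistant ones, so the groups overlapped. The fitted log2 fold change was -0.02 (SE 0.35, 95% interval -0.82 to 0.79, edgeR adjusted p = 0.997), and its sign turned, to 0.029, with upper-quartile scaling. The authors' means of ERBB2 were 4116 in the parental and 4366 in the resistant group, a log2 ratio of 0.08. ERBB2 overlaps 2 genes on the other strand in the table, PGAP3 over 8884 bases, with 275, 264 and 386 reads, and MIEN1 over 1931 bases, with 158, 242 and 337 reads. ERBB2 itself had 4454, 4515 and 6049 reads.

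ERBB3 (ENSG00000065361, chr12:56473641-56497289, plus strand), the receptor that docks PI3-kinase most readily, was at 88.4 CPM in Parental 1, 65.5 in Resistant 1 and 35.0 in Resistant 2. It was the only member below the parental level in both resistant libraries, and the resistant libraries themselves were apart, Resistant 2 being at 0.534-fold of Resistant 1 (95% counting interval 0.483 to 0.591). The fitted log2 fold change was -0.81 (SE 0.41, 95% interval -1.76 to 0.13) and did not pass the test (edgeR adjusted p = 0.600). It was -0.43 with Resistant 1 as the only resistant library and -1.34 with Resistant 2 alone. The authors' means were 1113 and 698.8 in the parental and resistant groups, a log2 ratio of -0.67.

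ERBB4 (ENSG00000178568, chr2:212240446-213403565, minus strand), a receptor for neuregulins and for some EGFR ligands, was the member with the fewest reads: 19 in Parental 1, 45 in Resistant 1 and 27 in Resistant 2, or 1.35, 2.75 and 1.56 CPM. Both resistant libraries were above the parental one, Resistant 1 at 2.04-fold (95% counting interval 1.17 to 3.69) and Resistant 2 at 1.15-fold (0.618 to 2.19), an interval that holds 1. The log2 fold change of 0.67 (SE 0.69, 95% interval -0.90 to 2.24) had an edgeR adjusted p of 0.862. The authors' means were 27.3 in the parental and 69.8 in the resistant group, a log2 ratio of 1.32, so the group means were further apart than the libraries used here.

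Among the ligands, EREG and HBEGF had the largest differences. EREG (ENSG00000124882, chr4:75230860-75254468, plus strand) encodes epiregulin, a low-affinity ligand of EGFR and ERBB4. Its reads numbered 1193 in Parental 1, 2916 in Resistant 1 and 3624 in Resistant 2, that is 84.7, 178.5 and 208.9 CPM. The resistant libraries stood at 2.11-fold (95% counting interval 1.97 to 2.25) and 2.47-fold (2.31 to 2.63) of the parental library and were close to each other, at 1.17-fold. The fitted log2 fold change was 1.19 (SE 0.35, 95% interval 0.38 to 2.00). It ranked 483 of 15643 genes by p and did not pass the test (edgeR adjusted p = 0.290). The authors' means of EREG were 1216 in the parental and 2398 in the resistant group, a log2 ratio of 0.98.

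HBEGF (ENSG00000113070, chr5:139712428-139726216, minus strand) encodes heparin-binding EGF-like growth factor. It had 885, 1758 and 4170 reads in Parental 1, Resistant 1 and Resistant 2, or 62.9, 107.6 and 240.4 CPM. Both resistant libraries were above the parental one, but by unlike amounts, 1.71-fold (95% counting interval 1.58 to 1.86) and 3.82-fold (3.56 to 4.12). Resistant 2 was 2.23-fold above Resistant 1, a gap wider than that of 90.1% of all tested genes. The fitted log2 fold change was 1.47 (SE 0.51, 95% interval 0.31 to 2.62), with an edgeR adjusted p of 0.397 and rank 734. It was 0.78 with Resistant 1 as the only resistant library and 1.93 with Resistant 2 alone. The authors' means, which also take in clones not used here, were 1138 in the parental and 1931 in the resistant group. Their log2 ratio of 0.76 was below the fitted value.

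TGFA (ENSG00000163235, chr2:70674412-70781325, minus strand) encodes transforming growth factor alpha, an EGFR ligand of epithelial cells. It was at 119.5 CPM in Parental 1, 148.9 in Resistant 1 and 218.2 in Resistant 2. Both resistant libraries were above the parental one, by 1.25-fold and 1.83-fold. The fitted log2 fold change of 0.62 (SE 0.38, 95% interval -0.24 to 1.48) had an edgeR adjusted p of 0.682, and the authors' means of 1928 and 2400 gave a log2 ratio of 0.32.

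AREG (ENSG00000109321, chr4:75310851-75320726, plus strand) encodes amphiregulin and is the next tested gene after EREG on chromosome 4, with starts 80.0 kb apart. Its level was 13.9 CPM in Parental 1, 12.4 in Resistant 1 and 15.5 in Resistant 2. Unlike in EREG, the groups overlapped, and the log2 fold change was 0.01 (SE 0.42, 95% interval -0.94 to 0.96, edgeR adjusted p = 0.999). The authors' means were 189.4 in the parental and 176.0 in the resistant group, a log2 ratio of -0.11. The table lists a near-identical copy, AREGB, at 0 in all 3 libraries, and how the authors' counting treated reads that match both is not given in the sources used here, so the level of AREG is uncertain.

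The 2 remaining ligands were low. BTC (ENSG00000174808, chr4:75669969-75719896, minus strand), which encodes betacellulin, had 50, 66 and 77 reads, or 3.55, 4.04 and 4.44 CPM in Parental 1, Resistant 1 and Resistant 2. Its resistant libraries were both above the parental one, but each counting interval of the fold held 1 (0.776 to 1.68 and 0.864 to 1.82), and the log2 fold change was 0.26 (SE 0.52, 95% interval -0.93 to 1.44, edgeR adjusted p = 0.945). NRG1 (ENSG00000157168, chr8:31496902-32622548, plus strand), the neuregulin that binds ERBB3 and ERBB4, was at 12.5, 9.67 and 13.5 CPM, with the parental library between the resistant ones. Its log2 fold change was -0.11 (SE 0.44, 95% interval -1.11 to 0.89, edgeR adjusted p = 0.978). By the authors' means BTC had a log2 ratio of -0.10 and NRG1 one of -0.51, the latter from 285.8 to 199.8.

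**Figure D2:**
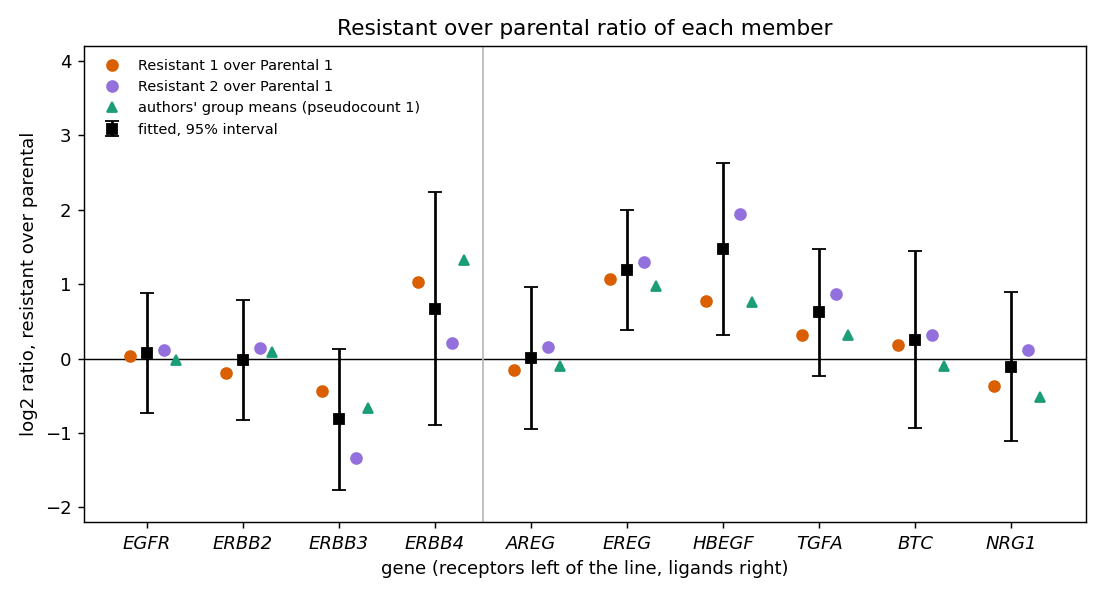
Resistant over parental log2 ratio of each member, with receptors left and ligands right of the grey line: circles are each resistant library over Parental 1, squares the fitted log2 fold change with its 95% interval, and triangles the deposited group means (pseudocount 1). The fitted intervals of EREG (0.38 to 2.00) and HBEGF (0.31 to 2.62) lay above 0 and those of the other 8 members held 0, and no member had an adjusted p under 0.05.

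The promoters of EREG and HBEGF, the ligands with the largest fitted differences, and of AREG, the neighbour of EREG whose groups overlapped, are shown so that their letters can be compared. Each is the stretch of 250 bases before the RefSeq start on GRCh38.p14, written 5′ to 3′ on the strand of the gene, and these coordinates are of another build than the gene positions above. Capitals mark each match, on either strand, to 1 of 6 motifs: the TATA box TATAAA, the cyclic AMP response element TGACGTCA, the AP-1 site TGANTCA, the CCAAT box CCAAT, the GC box GGGCGG and the ETS site CCGGAAG.
EREG, chr4:74364895-74365144, plus strand: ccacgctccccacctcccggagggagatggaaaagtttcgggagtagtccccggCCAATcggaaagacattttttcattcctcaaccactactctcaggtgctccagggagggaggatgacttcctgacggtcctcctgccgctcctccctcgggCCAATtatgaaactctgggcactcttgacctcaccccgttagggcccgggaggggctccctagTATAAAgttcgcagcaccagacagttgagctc
AREG, chr4:74444886-74445135, plus strand: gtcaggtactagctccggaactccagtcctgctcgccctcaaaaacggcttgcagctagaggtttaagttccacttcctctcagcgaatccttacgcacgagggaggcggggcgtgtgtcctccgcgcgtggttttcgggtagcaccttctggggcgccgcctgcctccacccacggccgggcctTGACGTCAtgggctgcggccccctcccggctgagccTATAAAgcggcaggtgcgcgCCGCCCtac
HBEGF, chr5:140346604-140346853, minus strand: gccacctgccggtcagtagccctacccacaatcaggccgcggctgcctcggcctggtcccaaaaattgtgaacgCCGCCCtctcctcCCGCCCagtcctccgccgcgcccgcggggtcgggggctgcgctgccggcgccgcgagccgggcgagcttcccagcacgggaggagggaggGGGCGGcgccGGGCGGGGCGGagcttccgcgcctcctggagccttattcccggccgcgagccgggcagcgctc
The EREG stretch held a TATA box 32 to 27 bases before the start and 2 CCAAT boxes. The AREG stretch also held a TATA box, 29 to 24 bases before the start, and beside it a full cyclic AMP response element at 65 to 58 bases and 1 GC box. The HBEGF stretch held 5 GC boxes, of which 2 share 1 base, and no TATA box, and at 76.4% G and C it was richer in these bases than the AREG stretch at 65.2% and the EREG stretch at 58.0%. Of 35116 promoter windows of the same length, 10.72% held TATAAA, 1.646% the cyclic AMP response element, 6.573% the AP-1 site, 32.01% CCAAT, 42.64% the GC box and 8.517% the ETS site. A match is a string of letters, not a measured site. A RefSeq promoter was matched for 9 of the 10 members, all except ERBB3.

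The members were ordered by level per length. In Parental 1 ERBB2 led at 62.4 FPKM, before EGFR at 45.3, TGFA at 27.0, HBEGF at 25.6, EREG at 17.8, ERBB3 at 14.5, AREG at 10.9, NRG1 at 3.89, BTC at 1.23 and ERBB4 at 0.108. In the resistant libraries ERBB2 was at 57.8 and 70.3 FPKM and EGFR at 49.1 and 50.2. HBEGF was at 46.5 in Resistant 1, below both of these receptors, and at 100.1 in Resistant 2, where it was the most abundant member. TGFA was at 35.6 and 50.3 FPKM and EREG at 39.9 and 44.9, so that over the 2 resistant libraries the range of HBEGF overlapped those of ERBB2, EGFR and TGFA, and the range of TGFA those of EGFR and EREG. ERBB3, at 11.4 and 5.87, overlapped with AREG at 10.3 and 12.4, whereas NRG1 (3.19 and 4.29), BTC (1.48 and 1.57) and ERBB4 (0.234 and 0.127) followed without overlap.

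The summed receptor level differed less between the libraries than the summed ligand level. The 4 receptors summed to 122.4 FPKM in Parental 1, 118.6 in Resistant 1 and 126.5 in Resistant 2. EGFR made up 37.0%, 41.4% and 39.7% of that sum, and ERBB2 made up 51.0%, 48.7% and 55.5%. The share of ERBB3 was 11.9% in Parental 1, 9.62% in Resistant 1 and 4.64% in Resistant 2, and the ratio of ERBB2 to ERBB3 was 4.30, 5.07 and 12.0.

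The 6 ligands summed to 86.4 FPKM in Parental 1, 137.0 in Resistant 1 and 213.5 in Resistant 2, so that ligand transcripts per EGFR transcript, by FPKM, were 1.91, 2.79 and 4.25. HBEGF took 29.7%, 34.0% and 46.9% of the ligand sum. EREG took 20.7%, 29.1% and 21.0%, and TGFA 31.2%, 26.0% and 23.5%. AREG made up 12.6% in Parental 1 and 7.54% and 5.80% in the resistant libraries. Within libraries the ratio of EREG to AREG was 1.64 in Parental 1, 3.86 in Resistant 1 and 3.63 in Resistant 2, and that of HBEGF to TGFA was 0.950, 1.31 and 1.99. These sums and shares are values of single libraries, with 1 of the parental group, and were not tested.

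**Figure D3:**
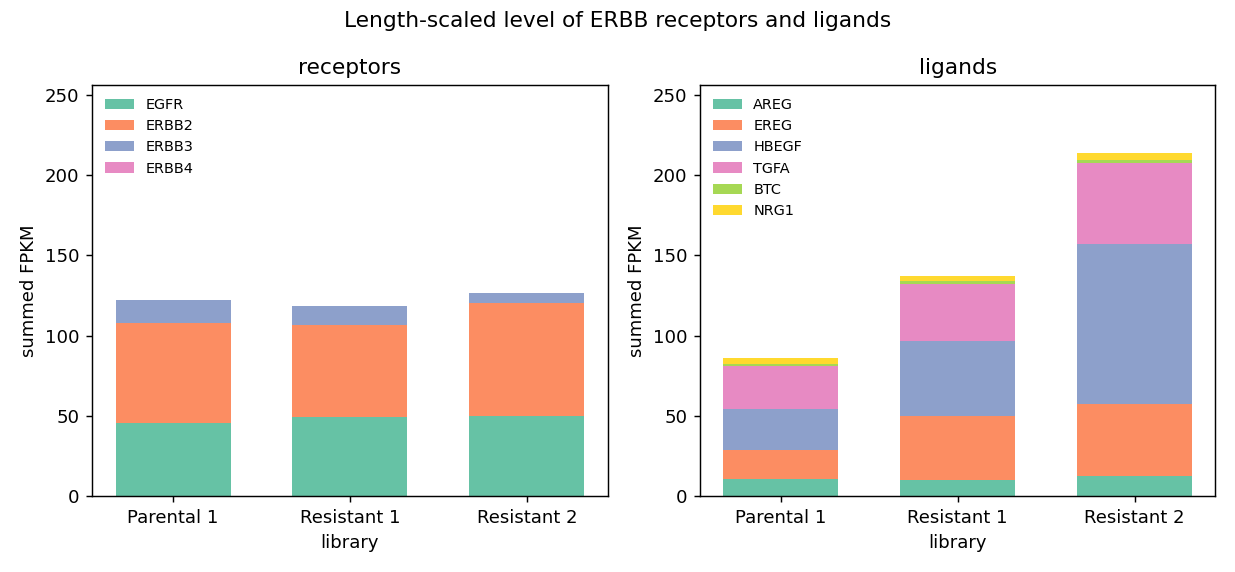
Stacked FPKM of the 4 receptors (left) and the 6 ligands (right) in each of the 3 libraries, on vertical axes of the same range that start at 0. The receptor sums lay between 118.6 and 126.5 FPKM, and the ligand sums went from 86.4 in Parental 1 to 213.5 in Resistant 2, with HBEGF as the largest ligand block in both resistant libraries.

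Another 5 EGF-family ligands outside the members were read from the same table. EGF, EPGN and NRG3 had 0 or 1 read in each library and were not tested. NRG2, a neuregulin that binds ERBB3 and ERBB4, had 3 reads in Parental 1, 16 in Resistant 1 and 89 in Resistant 2, folds of 4.59 (95% counting interval 1.32 to 24.6) and 24.1 (7.98 to 119), and its adjusted p was 0.408 by edgeR. NRG2 was kept by the filter on low counts only through the resistant libraries. The authors' means of NRG2 were 2.68 and 30.0. NRG4, a ligand of ERBB4, had 81, 35 and 24 reads, a fitted log2 fold change of -1.71 (SE 0.54, edgeR adjusted p = 0.344), with authors' means of 91.5 and 33.9. The highest level of either was 5.75 CPM, that of NRG4 in Parental 1.

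Against 0.582% and 9.54% of all tested genes, 0 of the 4 genes for ligand release were called and 1 had an unadjusted p under 0.05. This was RHBDF2, which encodes iRhom2, the partner that brings ADAM17 to the cell surface, at 88.9 CPM in Parental 1, 136.8 in Resistant 1 and 265.1 in Resistant 2 (log2 fold change 1.18, SE 0.46, edgeR adjusted p = 0.465). Its authors' means were 1275 and 2354, a log2 ratio of 0.88. ADAM17 itself, the sheddase of AREG, EREG, HBEGF and TGFA, was at 73.6, 78.3 and 63.1 CPM, with overlapping groups. In 2 of the 4 genes both resistant libraries were above the parental one and in 1 both were below (35.2% and 34.5% of all tested genes). The gene below was ADAM10, another protease, at 189.4 CPM in Parental 1, 169.0 in Resistant 1 and 123.5 in Resistant 2 (edgeR adjusted p = 0.838).

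Of the 13 tested adaptor and lipid kinase genes 0 were called by edgeR and 0 had an unadjusted p under 0.05. The shares over all tested genes were 0.582% and 9.54%. In 6 both resistant libraries were above the parental one, in 2 both were below (35.2% and 34.5% of all tested genes), and their median log2 fold change was 0.07. The gene furthest from 0 was PIK3R1, which encodes the p85 alpha regulatory subunit of PI3-kinase, at 19.3, 12.2 and 7.84 CPM (log2 fold change -0.94, SE 0.44, edgeR adjusted p = 0.564). In the RAS-ERK arm 0 of 10 genes were called by edgeR and 1 had an unadjusted p under 0.05, 5 were above and 2 below the parental level in both resistant libraries (35.2% and 34.5% of all tested genes), and the median was 0.24.

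Among 10 genes tied to receptor inhibition or ubiquitin-dependent turnover, including the deubiquitinase USP8, 0 were called by edgeR, against 0.582% of all tested genes. Of these 10, 4 were above and 4 below the parental level in both resistant libraries (35.2% and 34.5% of all tested genes), and the median was -0.09. LRIG1, a membrane protein that promotes degradation of ERBB receptors, was furthest from 0, at 8.31 CPM in Parental 1, 13.6 in Resistant 1 and 39.1 in Resistant 2 (log2 fold change 1.66, SE 0.64, edgeR adjusted p = 0.461). Here the authors' means of 299.4 and 350.2 gave a log2 ratio of only 0.23. At an unadjusted p under 0.05, 1 gene of this list was higher (LRIG1) and 3 were lower, against 4.63% and 4.91% of all tested genes. The 3 were LRIG3, CBLC and CBLB, with log2 fold changes of -1.11, -1.07 and -0.86. Their edgeR adjusted p-values were 0.372, 0.499 and 0.515. CBLB and CBLC encode ubiquitin ligases that act on activated EGFR.

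Of 18 ERK feedback and target genes, 0 were called by edgeR, against 0.582% of all tested genes. At an unadjusted p under 0.05 there were 6, all with a higher resistant level, against 4.63% of all tested genes. In 15 of the 18 (83.3%) both resistant libraries lay above the parental one, against 35.2% of all tested genes. In 2, EPHA4 and EGR1, both lay below, and in DUSP4 the groups overlapped. The median log2 fold change was 0.70, against 0.03 over all tested genes. By the authors' means 16 of 18 were higher in the resistant group, against 52.4% of all tested genes, with a median of 0.49 against 0.02. These means take in the libraries used here along with other clones, so they are not separate evidence. The list was chosen with earlier results of these data known. DESeq2 called 2 of the 18 genes, DUSP5 (adjusted p = 0.0244) and ETV5 (adjusted p = 0.00269). Of all genes that DESeq2 gave an adjusted p, 1.68% were called. ETV5 had 8 reads in Parental 1 and was kept by the filter on low counts only through the resistant libraries. With at least 10 reads asked of every library, 17 genes of the list remained, with a median log2 fold change of 0.66.

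ETV5, an ETS transcription factor induced by ERK signalling, had 8 reads in Parental 1, 73 in Resistant 1 and 221 in Resistant 2, or 0.568, 4.47 and 12.7 CPM (log2 fold change 3.90, SE 0.91, edgeR adjusted p = 0.147). DUSP5, a nuclear phosphatase of ERK, was at 44.5, 112.1 and 137.2 CPM (log2 fold change 1.49, SE 0.36, edgeR adjusted p = 0.174). SPRY1, which encodes a Sprouty inhibitor of receptor tyrosine kinase signalling, was at 7.67, 20.9 and 28.8 CPM (log2 fold change 1.70, SE 0.45, edgeR adjusted p = 0.222). In these 3 genes both resistant libraries were at least 2-fold above the parental one. DUSP6, a phosphatase of ERK in the cytoplasm, was at 108.3, 171.6 and 194.9 CPM with a log2 fold change of 0.76 (SE 0.34, edgeR adjusted p = 0.543). EGR1, an immediate early gene, differed between sources: it was at 33.9, 33.7 and 9.51 CPM in the libraries, whereas the authors' means were 497.2 in the parental and 1254 in the resistant group.

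**Figure D4:**
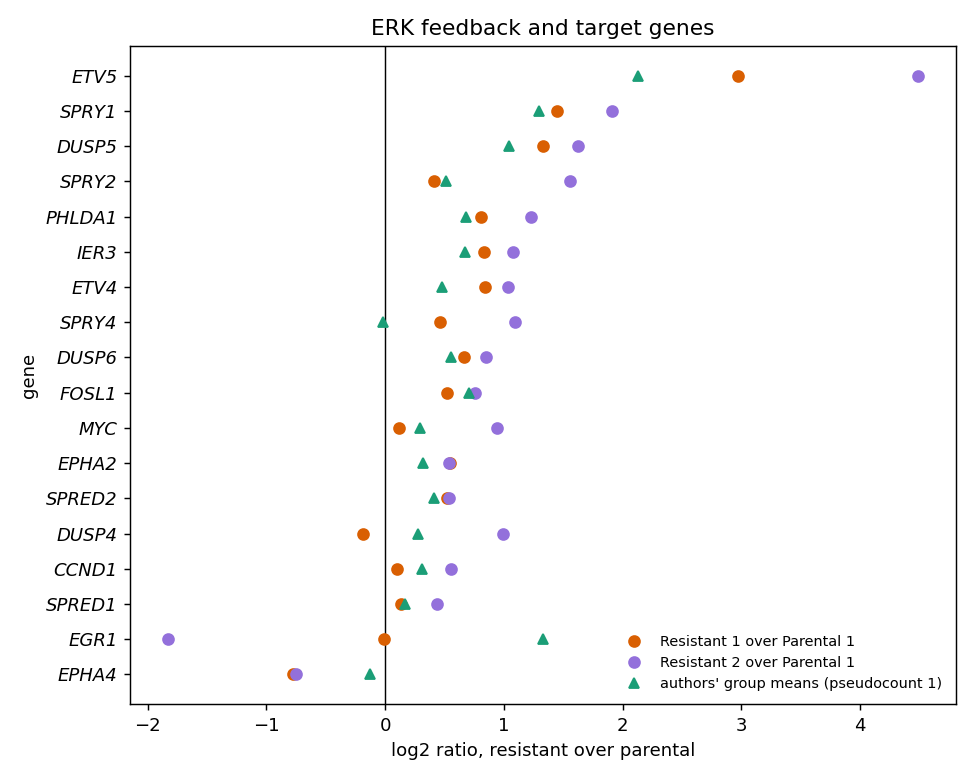
Resistant over parental log2 ratio of 18 ERK feedback and target genes, ordered by fitted log2 fold change, with circles for each resistant library over Parental 1 and triangles for the deposited group means (pseudocount 1). Both circles lay right of 0 for 15 genes, and EGR1 had its library ratios at or below 0 and its group means at 1.33.

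The 3 nearest tested genes on each side of every member were then read, to place each member beside the genes around it. Around ERBB3, 5 of 6 neighbours were below the parental level in both resistant libraries, as ERBB3 was, and 0 were above, against 34.5% and 35.2% of all tested genes. They lay within 82.7 kb by start position, with a median log2 fold change of -0.61, against 0.03 over all tested genes. RPS26, a ribosomal protein gene, was at 164.0 CPM in Parental 1, 130.1 in Resistant 1 and 53.1 in Resistant 2. RPL41 was at 391.2, 324.1 and 183.4 CPM and PA2G4, which encodes the ERBB3-binding protein EBP1, at 91.5, 72.5 and 49.1 CPM. In all 5 genes, as in ERBB3, Resistant 2 was the lowest library. RPS26 and RPL41 have near-identical pseudogenes, so their counts are uncertain.

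Around EREG, 5 of 6 neighbours lay above the parental level in both resistant libraries and 0 below, against 35.2% and 34.5% of all tested genes, with a median log2 fold change of 1.13 over 439.1 kb. One of the 5 is BTC, whose fold intervals both held 1. CXCL2, a neutrophil chemokine gene, was at 3.34, 9.85 and 13.7 CPM, a log2 fold change of 1.81 with an edgeR adjusted p of 0.269. CXCL3 was at 7.32, 9.73 and 24.4 CPM, and the reads of these close paralogs could be split by the authors' counting. By the authors' means, which take in other clones, the log2 ratios of CXCL2 and CXCL3 were 0.27 and -0.06, against 0.98 for EREG. AC142293.3, the neighbour furthest from 0, had 3, 37 and 26 reads, folds of 10.6 (95% counting interval 3.36 to 53.9) and 7.03 (2.16 to 36.3), and a log2 ratio of 2.55 by the authors' means. This gene was kept by the filter on low counts only through the resistant libraries, yet it is counted in the 5 and in the median. AREG was the 1 neighbour with overlapping groups. The neighbourhoods of AREG and BTC overlap this one, hold EREG itself and AC142293.3, and are not further evidence. There 6 of 6 and 4 of 6 neighbours were above the parental level in both resistant libraries.

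Around HBEGF 1 of 6 neighbours was above and 3 were below the parental level in both resistant libraries. The median log2 fold change of the 6 was -0.31. Around TGFA 0 were above and 3 below, with a median of -0.09. Of all tested genes, 35.2% were above and 34.5% below. For the other members the medians were 0.03 around EGFR, 0.14 around ERBB2, -0.04 around ERBB4 and 0.19 around NRG1. Of the 52 different neighbours of all members, 1 was called by edgeR, against 0.582% of all tested genes. This was CPS1, the urea cycle enzyme carbamoyl phosphate synthetase, which starts 898.0 kb from ERBB4. CPS1 was kept by the filter on low counts only through the resistant libraries. It had 1 read in Parental 1, 178 in Resistant 1 and 229 in Resistant 2, folds of 153 (95% counting interval 27.2 to 6091) and 186 (33.0 to 7373), with an edgeR adjusted p of 0.0119. GRB10, an adaptor that binds receptor tyrosine kinases and starts 4429 kb from EGFR, was at 61.7, 1.90 and 8.01 CPM and missed the threshold (log2 fold change -3.63, edgeR adjusted p = 0.0559).

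**Figure D5:**
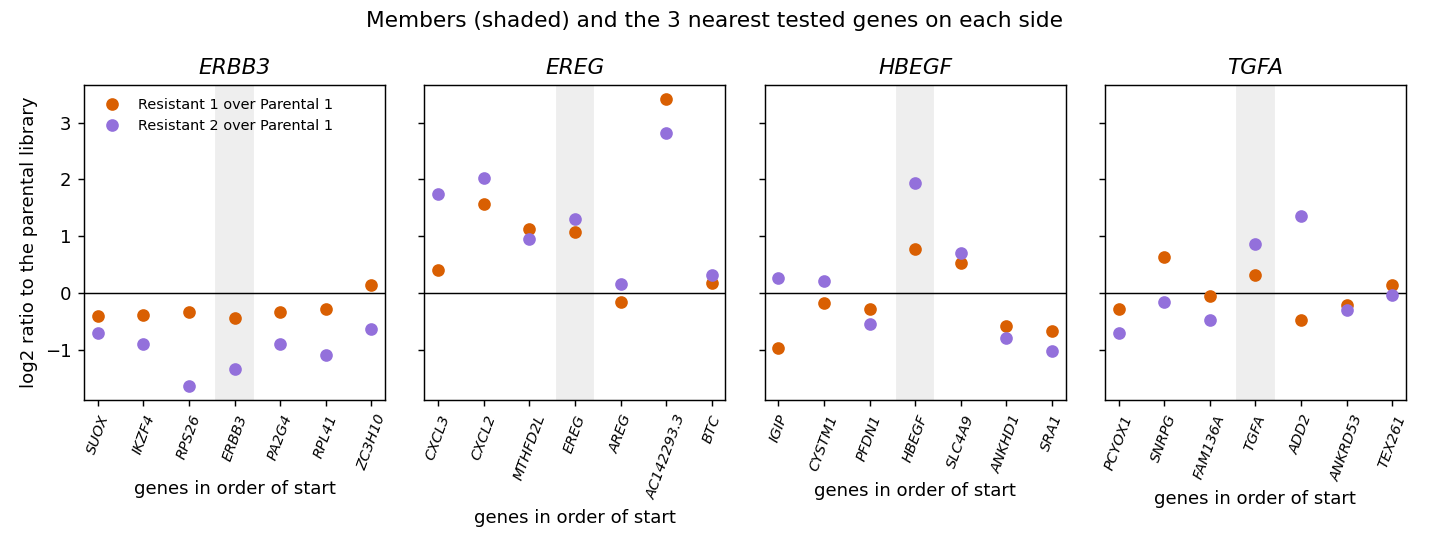
Log2 ratio of each resistant library to Parental 1 for ERBB3, EREG, HBEGF and TGFA (shaded) and the 3 nearest tested genes on each side, in order of start position. The neighbours of ERBB3 lay mostly below 0 with it, those of EREG mostly above 0 with it, and those of HBEGF and TGFA on both sides of 0.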

How the data were processed

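RNA of single-cell clones was sequenced by the authors, who deposited 1 table of 29960 genes. The labels name CASAVA 1.8 and hg19 for processing. The aligner, the counting tool and the annotation are not given in the sources used here. The deposited counts are raw reads per gene. The deposited FPKM values are those counts scaled by the listed gene length and the summed gene counts of the library, which was checked for every gene. The deposited group means are signal values, the authors' mean of normalized counts per group, with no spread, and include clones not used here. The authors' own fold changes and p-values in the table were not used, nor were 6 per-library columns without a sample label.

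Counts of 1 parental and 2 resistant libraries were fitted with edgeR 4.0.16 (R 4.3.3): TMM factors (0.974, 1.03 and 0.995), filterByExpr, and the quasi-likelihood F-test with Benjamini-Hochberg adjustment over 15643 genes at a threshold of 0.05. The fit has 1 residual and 7.49 prior degrees of freedom, so an SE or p rests mainly on the spread shared by all genes, and p-values measure only the spread between these clones. DESeq2 1.42.0 was an alternative. The steps were tested on simulated counts. Intervals, shares and plots were made in Python 3.11.15 with pandas 2.3.3, scipy 1.17.1, matplotlib 3.10.9 and numpy 2.4.6.

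The members, gene lists and rule for named genes were chosen with earlier results of these data known. The rule named all members, the 5 other EGF-family ligands, called genes of the lists and neighbours, and otherwise the gene furthest from 0 in each list, plus the 3 genes most like the member with the smallest p. Other genes named were chosen after their values were seen. A gene that the rule names is not reported here.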

Additional observations from a re-analysis of the deposited data

How the results depend on the processing

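Over all alternatives, 144 values were labelled the same, 15 moved further, and ERBB2 turned its sign in the full fit. The label went to log2 values that moved by less than the spread and to counts of genes called that stayed close to the main count. Members near 0 also crossed 0 where a library was left out (ERBB2, AREG, NRG1) or by the group means (EGFR, ERBB2, AREG, BTC). Those crossings are among the values labelled the same. The genes called numbered 91, with 21 higher and 70 lower in the resistant libraries. They numbered 178 with DESeq2's size factors (62 higher, 116 lower), 118 with upper-quartile scaling, 0 without a filter on low counts (1262 at an unadjusted p under 0.05), 79 with at least 10 reads in every library (33 higher, 46 lower), 92 with robust moderation, 137 with edgeR's older quasi-likelihood fit (46 higher, 91 lower), 248 with DESeq2's Wald test (124 in each direction) and 1384 by a 2-fold difference in both resistant libraries. No member was called in any of these fits, with 1 or 2 members at an unadjusted p under 0.05, and 1 member met the 2-fold rule. Of the pathway lists, 2 genes were called by DESeq2's Wald test and 0 by each edgeR fit. Of the neighbours, 2 were called with DESeq2's size factors, with upper-quartile scaling, with the older fit and with DESeq2's Wald test, and 0 without a filter. The count was again 1 with at least 10 reads in every library, where it was GRB10 and not CPS1. The fitted value of CPS1 fell from 7.26 to 5.95 with a prior count of 2. Upper-quartile scaling moved the median of all genes by 0.05 and turned ERBB2 to 0.029.

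With either resistant library left out, the log2 fold change ranged from 1.08 to 1.30 for EREG, 0.78 to 1.93 for HBEGF, 0.32 to 0.87 for TGFA, -1.34 to -0.43 for ERBB3, 0.20 to 1.03 for ERBB4, -0.19 to 0.14 for ERBB2, -0.15 to 0.16 for AREG and -0.36 to 0.11 for NRG1. These refits have no residual degree of freedom and give values without a test. The median of the ERK feedback and target genes was 0.53 without Resistant 2 and 0.97 without Resistant 1. The edgeR and DESeq2 adjusted p ranged from 0.126 to 0.726 for EREG and from 0.144 to 0.726 for HBEGF over the alternatives. The cause of these moves was not tested. No paired analysis was made because the labels give no pairing of parental and resistant clones. With 1 parental library its own spread is unknown, and with 19 to 45 reads for ERBB4 and 50 to 77 for BTC small differences were not detectable.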

Other observations

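The genes whose levels over the 3 libraries were most like those of EREG, by the Euclidean distance of centred log2 CPM among 9676 candidates of 10 CPM or more on average, were LYST, GALK1 and ACOX3, at distances of 0.014, 0.049 and 0.055. LYST, a regulator of lysosome trafficking, was at 12.4 CPM in Parental 1, 25.8 in Resistant 1 and 30.6 in Resistant 2. GALK1, the galactokinase of galactose breakdown, was at 10.7, 21.5 and 25.7 CPM, and ACOX3, a peroxisomal acyl-CoA oxidase, at 7.39, 16.1 and 17.9 CPM. The likeness is over 3 libraries and is a description only.

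The members also differed in how far apart the resistant libraries were. Resistant 2 was at 1.06-fold of Resistant 1 for EGFR (95% counting interval 1.03 to 1.10), 1.26-fold for ERBB2 (1.21 to 1.31), 1.46-fold for TGFA (1.39 to 1.54), 1.40-fold for NRG1 (1.14 to 1.72) and 1.24-fold for AREG (1.03 to 1.50). HBEGF, ERBB3 and ERBB4 had wider gaps than 90.1%, 84.2% and 81.2% of all tested genes, and EGFR wider than 13.5%.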
